A study of Mus musculus with 15 samples.

Results

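Transcripts of 47 genes of lysosomal digestion and acidification were followed through 4 sorted mouse populations. The genes were taken from a list of symbols that covers lysosomal proteases, other acid hydrolases, lipid export proteins, membrane proteins, 3 transcription factors and the vacuolar proton pump, and each was matched to its Ensembl identifier in the count table. All 47 were found among the 19456 genes of the table, and all 47 passed the filter on low counts. The rule for the list used no measured value, but the genes were chosen with earlier results of these data known. RNA sequencing was performed on Ly6Chi monocytes sorted from peripheral blood (n = 3) and on macrophages sorted from the small intestine in 3 subsets of 4 libraries each: cells with neither marker (Tim-4-CD4-), cells with CD4 alone (Tim-4-CD4+) and cells with both (Tim-4+CD4+). All 15 libraries came from adult male wild type C57BL/6 mice without treatment in the labels. Each library was a pool of 3 mice, except monocyte replicate 2, which pooled 4. Per the study, the macrophages came from 4 sorts and the monocytes from 3, so that libraries of different macrophage subsets can share mice, and the labels do not say which do. Tim-4, encoded by Timd4, is a phosphatidylserine receptor, and the study asked whether Tim-4 and CD4 mark distinct macrophages of the gut wall.

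Lysosomes break down what a macrophage takes up, as well as its own worn components. Their hydrolases are most active at acid pH, which the vacuolar ATPase maintains: its V1 sector hydrolyses ATP in the cytosol and its V0 sector passes protons through the membrane. Most soluble hydrolases are made as proenzymes and reach the lysosome on mannose 6-phosphate receptors. TFEB, TFE3 and MITF, basic helix-loop-helix factors of the MiT/TFE family, bind E-box elements in the promoters of many lysosomal genes, and their activity is controlled mainly through phosphorylation and nuclear entry.

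Levels are given as CPM, that is, gene counts scaled to a common library size after correction by the trimmed mean of M values. Total gene counts ran from 39388763 to 151510641 per library. Differences were tested by the quasi-likelihood method of edgeR on the 15802 genes that passed the filter, and a gene was called at a Benjamini-Hochberg adjusted p under 0.05. The sorted surface markers followed the labels: Timd4 was at 336 to 389.9 CPM in Tim-4+CD4+ libraries and at most 4.47 CPM elsewhere, Cd4 was at least 484 CPM in both CD4+ subsets against at most 39.2 CPM in the others, and Ly6c2 was at least 820.0 CPM in monocytes against at most 3.46 CPM in macrophages. A macrophage list of 6 genes summed to between 17018 and 22522 CPM in every macrophage library and to between 1175 and 1457 CPM in monocytes. Tim-4+CD4+ replicate 1 stood apart from its group, with a chi-square per gene of 212 to 272 against the other 3 libraries, which differed among themselves by 38.9 to 74.7. It held the highest value of its group for 33 of the 47 members, and several of the calls that change without it are named.

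Together the 47 genes took 3.18 ± 0.185% of all gene counts in monocytes, 3.68 ± 0.0684% in the Tim-4-CD4- subset, 4.11 ± 0.148% in Tim-4-CD4+ libraries and 4.36 ± 0.287% in the Tim-4+CD4+ subset (mean ± SD over libraries). The single libraries held 3.38, 3.01 and 3.15% in monocytes, 3.67, 3.73, 3.59 and 3.73% in the Tim-4-CD4- subset, 4.01, 4.05, 4.07 and 4.33% in Tim-4-CD4+ libraries and 4.76, 4.34, 4.17 and 4.14% in the Tim-4+CD4+ subset. Each macrophage library lay above each monocyte library, and every library of the CD4+ subsets lay above every Tim-4-CD4- library. Between monocytes and Tim-4+CD4+ macrophages, the 9 cysteine proteases gave most of the difference, at 0.749 ± 0.0803% and 1.74 ± 0.0996%. The 14 proton pump genes together had a lower mean share in macrophages. It went from 0.231 ± 0.00687% of counts in monocytes to 0.181 ± 0.00322% in the Tim-4-CD4- subset and 0.206 ± 0.0161% in the Tim-4+CD4+ subset. Replicate 1 of the latter lay within the monocyte range. Pump subunits outside the 14, which are given further below, are not in this share. The V1 sector was at 0.122 ± 0.00703% in monocytes and 0.0811 ± 0.00353% in the Tim-4+CD4+ subset. The V0 sector instead went from 0.0727 ± 0.00304% to 0.0939 ± 0.011%. In bulk RNA of this kind, fewer cells of a type in a sort and less of a transcript per cell cannot be told apart.

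**Figure D1:**
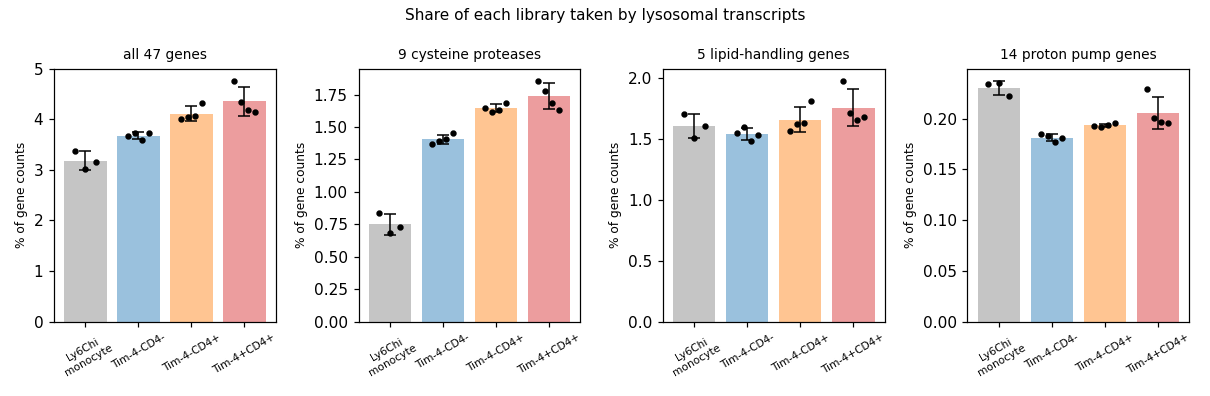
Percentage of all gene counts taken by the 47 genes together, by the 9 cysteine proteases, by the 5 genes of lipid handling and by the 14 proton pump genes. Points are libraries, bars are means and error bars are SD (n = 3 monocyte and 4 libraries of each macrophage subset). The cysteine protease share is at least 1.37% in every macrophage library and at most 0.838% in every monocyte library, whereas the mean pump share is highest in monocytes.

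Levels were compared between genes per kilobase of exon. Psap, the precursor of the saposins that present sphingolipids to hydrolases, was the most abundant member in every population, at 4810.1 CPM per kb in monocytes and 5803 in Tim-4+CD4+ macrophages. Ctss, encoding the cysteine protease cathepsin S that cleaves the invariant chain, was the second in every population. Lgmn, encoding the asparaginyl endopeptidase legumain, ranked 21 in monocytes at 93.2 CPM per kb and 3 in each macrophage subset, at 1193, 1459.8 and 1529 in the order of neither marker, CD4 alone and both markers. The lowest ranks were taken by Ctsf in monocytes, at 0.643 CPM per kb, and by Ctse in each macrophage subset, at 1.19, 0.61 and 0.600.

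**Figure D2:**
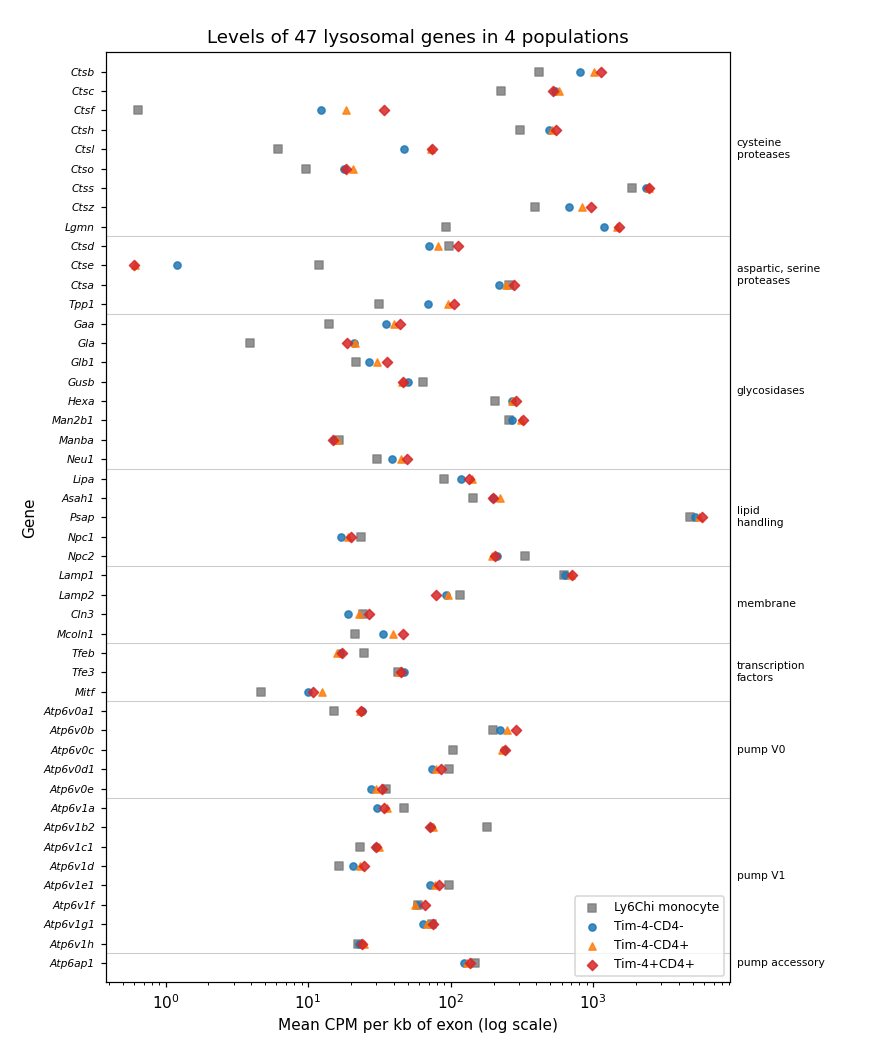
Mean level of each of the 47 genes in CPM per kb of exon (log axis), in monocytes (n = 3) and the 3 macrophage subsets (n = 4 each), grouped by role. Grey squares sit far to the left of the macrophage symbols for Ctsf, Lgmn, Ctsl and Gla, and to the right for Ctse and Atp6v1b2, while the macrophage symbols of most other genes lie close together.

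Promoter sequence was examined because the list holds the MiT/TFE factors and members that moved together. RefSeq windows of 250 bases before to 50 bases after each transcript start (GRCm38.p6) were held for 38 of the 47 members. The E-box CACGTG, which reads the same on both strands, was present in 15 of the 38 (39.5%) and in 8.09% of all 27025 genes with a window. The longer element GTCACGTG, searched on both strands and containing the first, was found in 10 of 38 members (26.3%) against 2.55% of all genes, and GTCACGTG followed by AC, a palindrome that contains both, in 1 member, Cln3, against 0.370%. Genes with several windows counted once if any window matched. Lamp1, encoding the abundant membrane glycoprotein LAMP1, held 4 copies of CACGTG within 70 bases of its start, the most of any member. The stretches printed are upstream of the RefSeq start, written 5′ to 3′ on the strand of the gene with each CACGTG in capitals. They are those of Lamp1 (chr8:13159091-13159160, plus strand), of Ctsf, the single member called in all 6 comparisons (chr19:4855034-4855103, plus strand), of Lgmn (chr12:102439124-102439193, minus strand) and Ctsl (chr13:64370739-64370768, minus strand), which rose most against monocytes after Ctsf, of Mcoln1 (chr8:3500462-3500491, plus strand), of Cln3 with the full palindrome (chr7:126583340-126583369, minus strand), of Ctsa (chr2:164833749-164833772, plus strand) and of the pump gene Atp6v0b (chr4:117887348-117887377, minus strand).
Lamp1: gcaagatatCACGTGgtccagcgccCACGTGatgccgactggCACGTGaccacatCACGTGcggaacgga
Ctsf: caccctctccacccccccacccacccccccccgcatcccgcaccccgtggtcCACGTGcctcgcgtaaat
Lgmn: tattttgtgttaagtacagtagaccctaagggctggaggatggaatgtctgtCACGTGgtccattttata
Ctsl: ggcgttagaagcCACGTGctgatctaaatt
Mcoln1: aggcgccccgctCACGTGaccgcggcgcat
Cln3: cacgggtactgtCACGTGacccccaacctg
Ctsa: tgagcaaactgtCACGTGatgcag
Atp6v0b: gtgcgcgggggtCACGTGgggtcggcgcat
A match describes these letters only, and binding of a factor was not measured. The other members with CACGTG were Atp6v0d1, Atp6v0e, Atp6v1a, Ctsd, Gaa, Gla and Glb1.

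Each macrophage subset was first set against Ly6Chi monocytes, the circulating cells from which gut macrophages can form. Of the 47 members, 38 were called in Tim-4-CD4- macrophages (23 higher, 15 lower), 36 in the Tim-4-CD4+ subset (25 higher, 11 lower) and 34 with both markers (26 higher, 8 lower). Over all genes tested, 65.4%, 69.8% and 70.9% were called in the same comparisons, split into 37.3% higher and 28.1% lower, 39.1% and 30.7%, and 39.5% and 31.3%. The share of members called was near or somewhat above that of all genes. A change of at least 2-fold was called for 11, 14 and 14 of the 47 members, a smaller share than the 38.2%, 42.3% and 43.3% of all genes. The median log2 fold change of the members was 0.15, 0.32 and 0.37, beside 0.08, 0.11 and 0.10 for all genes. With upper-quartile scaling the median of all genes in Tim-4+CD4+ macrophages moved from 0.10 to 0.21, and the split of calls in Tim-4-CD4+ macrophages became 27 higher and 6 lower. The same 23 members were higher than in monocytes in all 3 subsets and 8 were lower in all 3. Another 10 were called in 1 or 2 subsets, and none was called in opposite directions. Monocyte replicate 1 held the highest monocyte value of 36 of the 47 members. Without it the lower calls went from 15 to 9 in Tim-4-CD4- and from 11 to 5 in Tim-4-CD4+ macrophages, and the latter were 6 without monocyte replicate 2 and 7 without Tim-4-CD4+ replicate 2. Of the 8 members lower in all 3 subsets, Npc1 in Tim-4+CD4+ and Lamp2 in Tim-4-CD4+ macrophages, both at an adjusted p of 0.047, lost the call in 13 and 12 of the 15 fits that left out 1 library. Manba, Lamp1, Tfe3, Atp6v1f, Atp6v1g1 and Atp6v1h were not called against monocytes in any subset. A list of 6 immediate early and heat shock genes that tissue digestion induces (Fos, Jun, Egr1, Hspa1a, Hspa1b, Atf3) summed to between 289 and 398 CPM in monocytes and between 13152 and 19263 CPM in macrophages. Blood and gut were prepared differently, so tissue, digestion and cell type cannot be told apart in these 3 comparisons.

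All 9 cysteine proteases were higher in every macrophage subset than in monocytes. Their median log2 fold changes were 0.96, 1.30 and 1.32 in the same order of subsets, with single genes from 0.32 to 5.74. The widest differences were those of Ctsf, Lgmn and Ctsl.

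Ctsf (ENSMUSG00000083282.2, chr19:4855130-4860918, plus strand) encodes cathepsin F, a papain-type protease described in invariant chain processing in macrophages. It was measured at 0.985, 1.48 and 1.36 CPM in the 3 monocyte libraries, 24.5, 26.6, 20.7 and 25.9 in the Tim-4-CD4- subset, 31.6, 35.5, 40.9 and 38 in Tim-4-CD4+ libraries and 85.4, 56.3, 65.3 and 61.8 in the Tim-4+CD4+ subset. No 2 populations overlapped, and the levels rose at each step from monocytes through cells with neither marker and with CD4 alone to cells with both. Against monocytes the log2 fold change was 4.28 (SE 0.19, adjusted p = 4e-12), 4.86 (SE 0.19, adjusted p = 8.1e-13) and 5.74 (SE 0.20, adjusted p = 1.4e-13) in that order of subsets.

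Lgmn (ENSMUSG00000021190.14, chr12:102394084-102439813, minus strand) was measured at 206, 168 and 190.5 CPM in the 3 monocyte libraries, 2420.2, 2418, 2294 and 2497 in the Tim-4-CD4- subset, 2767, 2907, 2915 and 3195 in Tim-4-CD4+ libraries and 3468, 3101, 2924 and 2848 in the Tim-4+CD4+ subset. Every macrophage library held more than 10 times the highest monocyte library. Its fitted log2 fold change against monocytes was 3.68 (SE 0.11, adjusted p = 2.5e-14), 3.97 (SE 0.11, adjusted p = 9.1e-15) and 4.04 (SE 0.11, adjusted p = 7.6e-15) in the 3 subsets.

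Ctsl (ENSMUSG00000021477.8, chr13:64359337-64370890, minus strand), encoding cathepsin L, gave 43.9, 36.6 and 33.9 CPM in the 3 monocyte libraries, 273, 318, 271 and 297 in the Tim-4-CD4- subset, 429.9, 439, 457 and 464 in Tim-4-CD4+ libraries and 496, 466, 446 and 428 in the Tim-4+CD4+ subset. The monocyte, Tim-4-CD4- and CD4+ libraries formed 3 separate ranges, and the ranges of both CD4+ subsets overlapped. Against monocytes Ctsl differed by 2.92 (SE 0.11, adjusted p = 4.6e-13) on the log2 scale in the subset with neither marker and by 3.59 (SE 0.11, adjusted p = 4.1e-14) in that with both. In the GENCODE M21 annotation 6.09% of its exon bases also lie in another gene of the same strand, where reads assigned to more than 1 gene may have been set aside in counting.

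**Figure D3:**
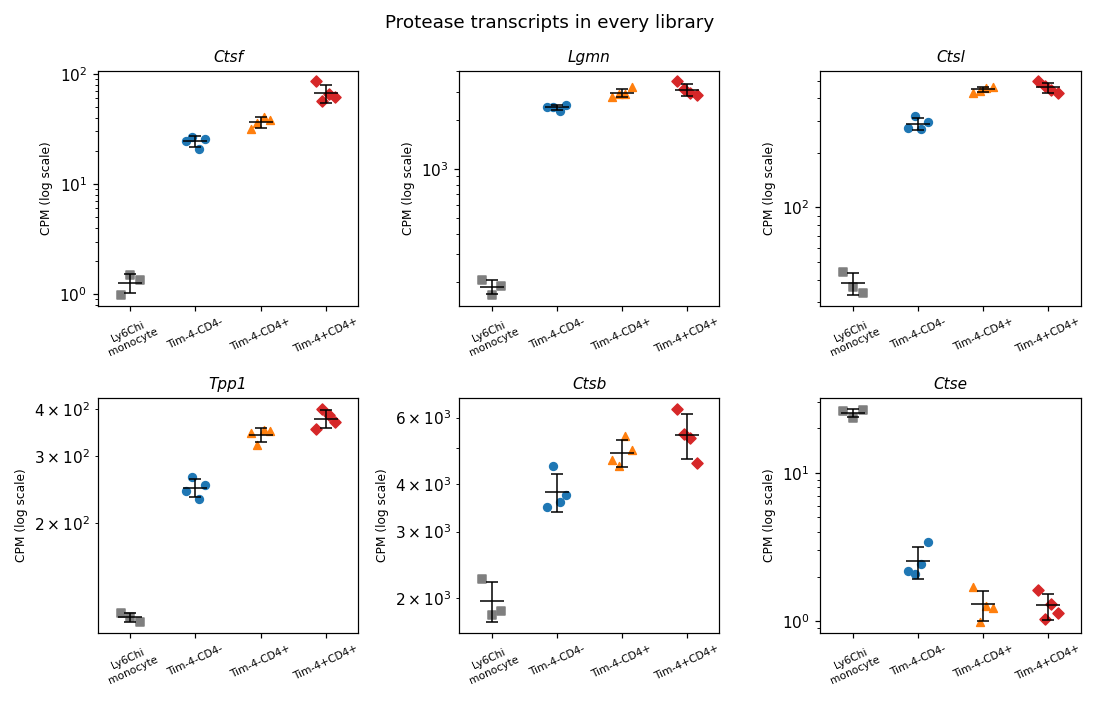
CPM of 6 protease genes in every library (log axes, each panel with its own range). Symbols are libraries, black bars are means and error bars are SD (n = 3 monocyte and 4 of each subset). The Ctsf libraries of the 4 populations do not overlap, and mean Ctse goes from 25.3 CPM in monocytes to 1.28 CPM in Tim-4+CD4+ cells.

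The other 6 cysteine proteases were already abundant in monocytes except Ctso. Ctss gave 3113, 2156 and 2369 CPM in the 3 monocyte libraries, 2989.9, 2978, 3313 and 3411 in the Tim-4-CD4- subset, 3209.9, 3326, 3347 and 3418 in Tim-4-CD4+ libraries and 3675, 3356, 3171 and 3094 in the Tim-4+CD4+ subset, and monocyte replicate 1 overlapped the range with neither marker and that with both. Its log2 fold change against monocytes, 0.32 to 0.39, was the smallest of the 9. The call of Ctss in Tim-4-CD4- macrophages, at an adjusted p of 0.019, was lost without monocyte replicate 2 or 3. Ctsb, encoding cathepsin B, rose from 1969 ± 239 CPM in monocytes to 3824 ± 441, 4841 ± 385 and 5394 ± 735 CPM in the 3 subsets. Ctsz, whose product is a carboxypeptidase, rose from 561 ± 78.2 to 983 ± 25.6, 1203 ± 94.1 and 1403 ± 159.7 CPM. Ctsc, encoding the dipeptidyl peptidase that activates granule serine proteases, Ctsh, an aminopeptidase, and Ctso differed from monocytes by 1.21, 0.84 and 0.93 on the log2 scale in Tim-4+CD4+ macrophages.

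The 4 aspartic and serine proteases did not share a direction. Ctse (ENSMUSG00000004552.16, chr1:131638306-131675505, plus strand), which encodes the endosomal aspartic protease cathepsin E, gave 26.2, 23.3 and 26.4 CPM in the 3 monocyte libraries, 2.17, 2.09, 2.44 and 3.44 in the Tim-4-CD4- subset, 1.7, 0.986, 1.27 and 1.23 in Tim-4-CD4+ libraries and 1.63, 1.03, 1.3 and 1.14 in the Tim-4+CD4+ subset. It was the member that fell furthest: monocytes held 10 times the fitted level of the subset with neither marker and 19.8 times that of the subset with both, at log2 fold changes of -3.32 (SE 0.21, adjusted p = 4.2e-10) and -4.30 (SE 0.21, adjusted p = 1.7e-11). Tpp1 (ENSMUSG00000030894.5, chr7:105744811-105752235, minus strand), encoding the tripeptidyl peptidase lost in a childhood ceroid lipofuscinosis, went the opposite way, from 112 ± 3.05 CPM in monocytes to 247 ± 13.7, 342 ± 14.3 and 377 ± 20.5 CPM, with no overlap between any of the populations.

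Ctsa and Ctsd were each called against monocytes in 1 subset. Ctsa, encoding the carboxypeptidase that stabilises neuraminidase and beta-galactosidase, gave 997, 911 and 935 CPM in the 3 monocyte libraries, 835, 758, 808 and 791 in the Tim-4-CD4- subset, 838, 875, 942 and 943 in Tim-4-CD4+ libraries and 1148, 996, 969.9 and 988 in the Tim-4+CD4+ subset. It was called lower than in monocytes in Tim-4-CD4- macrophages, at -0.25 (SE 0.08, adjusted p = 0.015), and was not called in either CD4+ subset. Ctsd, encoding the main lysosomal aspartic protease cathepsin D, gave 241, 192 and 187 CPM in the 3 monocyte libraries, 133, 188, 144 and 135 in the Tim-4-CD4- subset, 162, 155, 222 and 151 in Tim-4-CD4+ libraries and 273, 219.9, 278 and 187 in the Tim-4+CD4+ subset, with wide scatter within each subset. It was likewise called lower in Tim-4-CD4- macrophages, at -0.46 (SE 0.17, adjusted p = 0.024). Both calls were lost in 4 of the 15 fits that left out 1 library. In the GENCODE M21 annotation, 34.4% of the exon bases of Ctsd also lie in the overlapping gene Gm49369 on the same strand. Reads were counted over another GENCODE release, in which this overlap was not checked, so the count of Ctsd is uncertain.

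Among the 8 glycosidases, Gaa, Gla, Glb1, Hexa and Neu1 were higher than in monocytes in all 3 subsets, Gusb was lower in all 3, Man2b1 was higher in the CD4+ subsets and Manba was not called. Gla (ENSMUSG00000031266.6, chrX:134588149-134601125, minus strand), encoding the alpha-galactosidase deficient in Fabry disease, showed the largest difference, from 12.4 ± 1.48 CPM in monocytes to 66.6 ± 5.97, 68 ± 5.17 and 59.7 ± 7.13 CPM. Gaa, encoding the acid alpha-glucosidase that degrades glycogen, rose from 56.9 ± 0.218 to 142 ± 16, 163 ± 13.1 and 179 ± 13.6 CPM. Gusb, encoding beta-glucuronidase, fell from 239.9 ± 24 CPM to 189 ± 8.84, 170.4 ± 3.00 and 175 ± 11.6 CPM.

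Man2b1, the glycosidase with the highest level per kilobase over the 4 populations, encodes lysosomal alpha-mannosidase and gave 1029, 976 and 935 CPM in the 3 monocyte libraries, 1131, 1035, 928 and 1043 in the Tim-4-CD4- subset, 1093, 1210.0, 1112 and 1336 in Tim-4-CD4+ libraries and 1379.5, 1153, 1146 and 1232 in the Tim-4+CD4+ subset. Its Tim-4-CD4- libraries overlapped those of monocytes, and its log2 fold changes were 0.28 (SE 0.10, adjusted p = 0.019) and 0.33 (SE 0.10, adjusted p = 0.0074) in the CD4+ subsets. Manba, encoding beta-mannosidase and the lowest of the group, gave 59.3, 64.4 and 56.7 CPM in the 3 monocyte libraries, 61.5, 53.8, 51.2 and 55.6 in the Tim-4-CD4- subset, 57.9, 58.7, 52.2 and 66.2 in Tim-4-CD4+ libraries and 55.5, 52.3, 54.7 and 56.9 in the Tim-4+CD4+ subset, and all 4 populations overlapped. Glb1, Hexa and Neu1, which encode beta-galactosidase, the alpha subunit of beta-hexosaminidase and neuraminidase, differed from monocytes by 0.72, 0.49 and 0.71 on the log2 scale in Tim-4+CD4+ macrophages.

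Of the genes of lipid handling, Lipa, encoding the acid lipase that hydrolyses cholesteryl esters, and Asah1, encoding acid ceramidase, were higher in all 3 subsets: Lipa went from 268 ± 26.1 CPM in monocytes to 352 ± 16.4, 417 ± 26.5 and 399.7 ± 22.6 CPM, and Asah1 from 400.2 ± 27 to 551 ± 30.1, 617 ± 32.1 and 551 ± 18.9 CPM. Npc2, encoding the soluble sterol carrier, fell from 1088 ± 118 CPM to 698 ± 25.3, 644 ± 34.6 and 672 ± 69.2 CPM. Npc1, encoding its membrane partner, gave 125, 127 and 119 CPM in the 3 monocyte libraries, 100.3, 92.3, 80 and 83.5 in the Tim-4-CD4- subset, 90, 96.8, 92.3 and 119 in Tim-4-CD4+ libraries and 97.7, 96.1, 111 and 111 in the Tim-4+CD4+ subset, at log2 fold changes of -0.47 (SE 0.11, adjusted p = 0.0011), -0.31 (SE 0.11, adjusted p = 0.017) and -0.25 (SE 0.11, adjusted p = 0.047). Its calls in the CD4+ subsets were lost in 5 and 13 of the 15 fits that left out 1 library, and its call in the subset with neither marker in none.

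Psap (ENSMUSG00000004207.14, chr10:60277627-60302597, plus strand) gave 14854, 12018 and 12725 CPM in the 3 monocyte libraries, 13926, 15357, 13484 and 13918 in the Tim-4-CD4- subset, 13772, 14512, 15577 and 16642 in Tim-4-CD4+ libraries and 18287, 15420.4, 15075 and 14914 in the Tim-4+CD4+ subset. Monocyte replicate 1 lay within the range of both Tim-4- subsets, and Psap was called in Tim-4+CD4+ macrophages, at 0.27 (SE 0.10, adjusted p = 0.023). That call was lost without Tim-4+CD4+ replicate 1 and without monocyte replicate 2 or 3, and Psap was also called in Tim-4-CD4+ macrophages without monocyte replicate 1 and with DESeq2. The other 46 genes without Psap took 1.77 ± 0.0909% of gene counts in monocytes and 2.77 ± 0.146% in that subset.

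Of the 4 membrane proteins, Mcoln1, which encodes the calcium channel mucolipin-1, was higher in every subset, at 44 ± 3.03 CPM in monocytes and 69.3 ± 3.08, 81.9 ± 6.46 and 95.4 ± 13.3 CPM in macrophages. Lamp2, encoding the membrane glycoprotein that takes part in chaperone-mediated autophagy, was called lower in every subset, at 585 ± 84.2 CPM against 471 ± 32.8, 485 ± 36.1 and 400.4 ± 52.5 CPM, but its call in Tim-4-CD4+ macrophages was lost in 12 of the 15 fits and that in Tim-4-CD4- macrophages in 3. Lamp1, with the 4 E-boxes shown above, gave 1465, 1358 and 1335 CPM in the 3 monocyte libraries, 1381, 1521, 1291 and 1425 in the Tim-4-CD4- subset, 1487, 1534, 1587 and 1622 in Tim-4-CD4+ libraries and 1668, 1615, 1579.9 and 1438 in the Tim-4+CD4+ subset, and was not called in any of the 6 comparisons. It gained a call against monocytes in Tim-4+CD4+ macrophages in 10 of the 15 fits that left out 1 library. Cln3, encoding a membrane protein mutated in juvenile ceroid lipofuscinosis, gave 85.3, 78.9 and 79.5 CPM in the 3 monocyte libraries, 62.7, 70.2, 59.1 and 62.4 in the Tim-4-CD4- subset, 67.4, 79.9, 86.2 and 71.6 in Tim-4-CD4+ libraries and 115, 78.6, 79.7 and 85.5 in the Tim-4+CD4+ subset. It was lower than in monocytes in Tim-4-CD4- macrophages, at -0.35 (SE 0.13, adjusted p = 0.021), and was not called against monocytes in the other subsets. The first call was lost in 6 of the 15 fits.

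The 3 transcription factors went 3 ways. Tfeb gave 98.1, 99 and 98.1 CPM in the 3 monocyte libraries, 67.7, 71.4, 66.5 and 62.8 in the Tim-4-CD4- subset, 56.1, 60.1, 76.1 and 62.1 in Tim-4-CD4+ libraries and 83, 67.5, 61.1 and 65.7 in the Tim-4+CD4+ subset. All its macrophage libraries lay below all monocyte libraries, at log2 fold changes of -0.55 (SE 0.11, adjusted p = 0.00036), -0.63 (SE 0.11, adjusted p = 9.3e-05) and -0.51 (SE 0.11, adjusted p = 0.00067). Mitf gave 15.4, 30.1 and 28.5 CPM in the 3 monocyte libraries, 57.7, 59.7, 47.6 and 48.6 in the Tim-4-CD4- subset, 70.3, 61.8, 63.9 and 70.5 in Tim-4-CD4+ libraries and 39.4, 63.4, 68.5 and 59.4 in the Tim-4+CD4+ subset, and every macrophage library lay above every monocyte library, at 1.12 (SE 0.21, adjusted p = 0.00016), 1.44 (SE 0.21, adjusted p = 1.2e-05) and 1.23 (SE 0.21, adjusted p = 5.4e-05). Tfe3 gave 169, 144 and 152 CPM in the 3 monocyte libraries, 172, 184, 157 and 173 in the Tim-4-CD4- subset, 147, 160.4, 171 and 152 in Tim-4-CD4+ libraries and 165, 159, 160.3 and 166 in the Tim-4+CD4+ subset, with overlapping ranges and no call in any of the 6 comparisons. None of the 3 was called between macrophage subsets, where their log2 fold changes ran from -0.21 to 0.32. Transcript levels do not report the phosphorylation or location of these factors.

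Proton pump subunits were called in both directions against monocytes, as were all genes tested. Of the 14 genes, 4 were higher and 6 lower with neither marker, 5 and 5 with CD4 alone, and 5 and 2 with both, with medians of -0.12, -0.10 and 0.05. Over all genes, 37.3% were higher and 28.1% lower, 39.1% and 30.7%, and 39.5% and 31.3% in the same order. Without Tim-4+CD4+ replicate 1, Atp6v0d1, Atp6v0e and Atp6v1e1 were also called lower with both markers, which made 5 lower in place of 2. Atp6v0a1, Atp6v0c, Atp6v1c1 and Atp6v1d were higher in all 3 subsets, and Atp6v1a and Atp6v1b2 were lower in all 3. Those last genes encode the A and B subunits that together form the ATP-hydrolysing head of V1.

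Atp6v1b2, the V1 gene with the highest level per kilobase over the populations, gave 504, 562 and 464 CPM in the 3 monocyte libraries, 209, 232, 185 and 199 in the Tim-4-CD4- subset, 209.6, 196, 229.8 and 211 in Tim-4-CD4+ libraries and 199.8, 209.6, 212 and 189.8 in the Tim-4+CD4+ subset. Monocyte libraries held at least 464 CPM and macrophage libraries no more than 232 CPM, and the log2 fold change was -1.31 (SE 0.09, adjusted p = 3.1e-09), -1.27 (SE 0.09, adjusted p = 3.8e-09) and -1.33 (SE 0.09, adjusted p = 1.9e-09). Atp6v1a fell from 200.5 ± 27.9 CPM to 129.6 ± 9.28, 151 ± 11.9 and 145 ± 19.6 CPM. Atp6v1d, encoding a subunit of the central rotor and the lowest V1 gene per kilobase over the 4 populations, gave 66.2, 62.4 and 53.8 CPM in the 3 monocyte libraries, 73.9, 80, 72 and 75.9 in the Tim-4-CD4- subset, 83.4, 81.8, 88.4 and 85.1 in Tim-4-CD4+ libraries and 98.5, 87.1, 89.8 and 84.1 in the Tim-4+CD4+ subset, and was higher than in monocytes by 0.31, 0.48 and 0.56 on the log2 scale.

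In the V0 sector, Atp6v0c, encoding the proteolipid of the proton-carrying ring, showed the largest difference, from 131 ± 22.5 CPM in monocytes to 296 ± 6.54, 289 ± 14.2 and 301 ± 15.1 CPM. The annotation names 2 pseudogenes after it, and reads shared with near-identical copies may have been left out of its count. Atp6v0b, encoding a second ring proteolipid and the V0 gene highest per kilobase over the 4 populations, gave 209.9, 184 and 204 CPM in the 3 monocyte libraries, 215, 231, 213 and 223 in the Tim-4-CD4- subset, 224, 248, 273 and 253 in Tim-4-CD4+ libraries and 377, 256, 246 and 266 in the Tim-4+CD4+ subset, and was called in the CD4+ subsets at 0.32 (SE 0.13, adjusted p = 0.031) and 0.52 (SE 0.13, adjusted p = 0.0016). Atp6v0a1, the V0 gene lowest per kilobase over the 4 populations, encodes an isoform of the membrane arm and gave 64, 56.8 and 62.5 CPM in the 3 monocyte libraries, 102, 93.3, 98.3 and 94.3 in the Tim-4-CD4- subset, 97, 95.7, 80.6 and 101 in Tim-4-CD4+ libraries and 102, 95.1, 90 and 90.6 in the Tim-4+CD4+ subset, with 0.67, 0.61 and 0.63 on the log2 scale. Atp6ap1, the single accessory gene, gave 339, 339.6 and 326 CPM in the 3 monocyte libraries, 276, 307, 258 and 278 in the Tim-4-CD4- subset, 282, 285, 311 and 303 in Tim-4-CD4+ libraries and 349.9, 314, 292 and 276 in the Tim-4+CD4+ subset, and was called lower in Tim-4-CD4- macrophages, at -0.26 (SE 0.09, adjusted p = 0.019). Atp6v0d1, Atp6v0e and Atp6v1e1 were each lower than in monocytes in both Tim-4- subsets, with log2 fold changes from -0.45 to -0.24. In Tim-4-CD4+ macrophages the calls of Atp6v0d1 and Atp6v0e were lost in 11 and 13 of the 15 fits and with DESeq2. The call of Atp6ap1 was lost in 6.

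**Figure D4:**
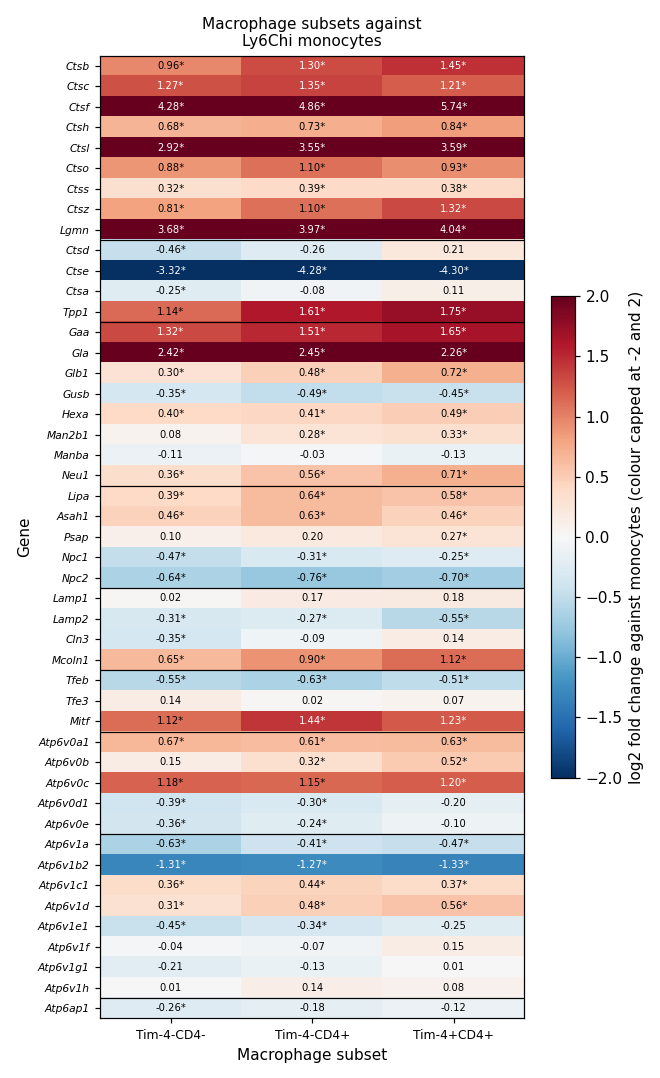
Log2 fold change of each of the 47 genes in the 3 macrophage subsets against Ly6Chi monocytes, printed in each cell and coloured, with the colour held constant beyond -2 and 2. Asterisks mark an adjusted p under 0.05, and black lines separate the roles. All 9 cysteine proteases at the top are red in every column, and the 14 proton pump genes at the foot hold both colours.

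Next, the macrophage subsets were compared with each other, which asks whether lysosomal transcripts differ with Tim-4 and CD4 inside the gut. The widest comparison was that of Tim-4+CD4+ with Tim-4-CD4- macrophages. Here 17 members were called, 16 of them higher in Tim-4+CD4+ cells and Ctse lower. Over all genes, 23.1% were called, 11.3% higher and 11.9% lower, while the members gave 16 of 47 higher and 1 of 47 lower. Their median log2 fold change was 0.17 beside -0.0047 for all genes, and 36 of 47 were above 0. Libraries of both subsets did not overlap for 20 members, 15 of them among the 16 called higher, and for 26.4% of all genes.

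The genes called higher in Tim-4+CD4+ than in Tim-4-CD4- macrophages were Ctsb, Ctsf, Ctsl, Ctsz, Lgmn, Ctsd, Ctsa, Tpp1, Gaa, Glb1, Neu1, Cln3, Mcoln1, Atp6v0b, Atp6v0e and Atp6v1d. All but Ctsf were less than 2-fold different, and 8.45% of all genes were called at 2-fold or more. Ctsf differed by 1.46 (SE 0.14, adjusted p = 1e-06), a 2.75-fold higher level. It was followed by Ctsd at 0.67 (SE 0.16, adjusted p = 0.005), Ctsl at 0.66 (SE 0.09, adjusted p = 4.1e-05) and Tpp1 at 0.61 (SE 0.07, adjusted p = 1.1e-05). Ctsz and Ctsb followed at 0.51 (SE 0.10, adjusted p = 0.001) and 0.50 (SE 0.11, adjusted p = 0.0037). Ctse went the other way, at -0.98 (SE 0.20, adjusted p = 0.0014), between a mean of 1.28 and 2.54 CPM. Ctsd was the single called gene whose libraries overlapped, since Tim-4+CD4+ replicate 4 and Tim-4-CD4- replicate 2 held 187 and 188 CPM.

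By role, 5 of 9 cysteine proteases, 3 of 4 aspartic and serine proteases, 3 of 8 glycosidases, 2 of 4 membrane proteins and 3 of 14 pump genes were higher in Tim-4+CD4+ than in Tim-4-CD4- cells, while no gene of lipid handling and no transcription factor was called. Of the glycosidases, Glb1, Neu1 and Gaa differed by 0.42, 0.36 and 0.33. Cln3 and Mcoln1 differed by 0.50 and 0.46, and the pump genes Atp6v0b, Atp6v0e and Atp6v1d by 0.38, 0.27 and 0.25. Those 3 pump genes were no longer called without Tim-4+CD4+ replicate 1, when 14 members were called and the median of the members was 0.13. Atp6v0b and Atp6v1d were also lost without Tim-4-CD4- replicate 1, 3 or 4, and Atp6v0e in 11 of the 15 fits in all. Gaa lost its call without Tim-4-CD4- replicate 3 or 4.

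Among members with a RefSeq window, 11 of the 15 with CACGTG and 4 of the 23 without it were higher in Tim-4+CD4+ than in Tim-4-CD4- macrophages. With the longer GTCACGTG the counts were 7 of 10 and 8 of 28. Ctsf, Ctsl, Lgmn, Mcoln1, Cln3, Ctsa and Atp6v0b of the sequences above were among those called, and Lamp1 was not. These counts carry no test. The share called higher among all genes with CACGTG, or among all genes without it, was not counted. Whether the element is linked to the difference was therefore not tested. Of the called genes with CACGTG, Atp6v0b, Atp6v0e and Gaa lost the call in some of the fits that left out a library. The count of Ctsd is uncertain, as stated above. Atp6v1d, which is not among the genes with CACGTG, also lost its call in some of those fits.

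Between the Tim-4- subsets, 5 members were called in Tim-4-CD4+ against Tim-4-CD4- macrophages, a comparison in which 10.1% of all genes were called, 4.52% higher and 5.53% lower. No member was called at 2-fold or more there, beside 3.06% of all genes. Ctsl, Ctsf, Tpp1 and Lgmn were higher by 0.63 (SE 0.09, adjusted p = 0.00022), 0.58 (SE 0.14, adjusted p = 0.012), 0.47 (SE 0.07, adjusted p = 0.00043) and 0.29 (SE 0.09, adjusted p = 0.039). Ctse was lower, at -0.96 (SE 0.20, adjusted p = 0.0042). The call of Lgmn was lost in most fits that left out 1 library, at an adjusted p of up to 0.15. Libraries of these subsets did not overlap for 16 of the 47 members, the 5 called among them. The share of all genes without overlap was not counted in this comparison. The median of the 47 was 0.13 beside -0.0029 for all genes, and 39 of 47 log2 fold changes were above 0. In the fit of all libraries, no glycosidase, lipid, membrane or pump gene and no transcription factor was called, with differences from -0.15 to 0.32. The count was 12 without Tim-4+CD4+ replicate 1, which is in neither group, and 12 when only these 2 populations were fitted. Ctsb, Ctso, Ctsz, Glb1, Lipa and Mcoln1 gained a call in both fits, Cln3 in the former and Mitf in the latter. Without Tim-4-CD4- replicate 3 the count was 3, when Ctsf and Lgmn were lost.

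Between the CD4+ subsets, Ctsf was the one member called, at 0.88 (SE 0.14, adjusted p = 0.00088), where 3.41% of all genes were called, 2.07% higher and 1.34% lower, and 1.75% at 2-fold or more. The fitted level with both markers was 1.84 times that with CD4 alone, and it kept its call when any 1 of the 15 libraries was left out. The other 46 members differed by -0.28 to 0.47 on the log2 scale, and the median of all 47 was 0.06, which became 0.0076 without Tim-4+CD4+ replicate 1. Without Tim-4-CD4+ replicate 3, Ctsd was called as well. Standard errors of the members in this comparison ran from 0.07 to 0.20.

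**Figure D5:**
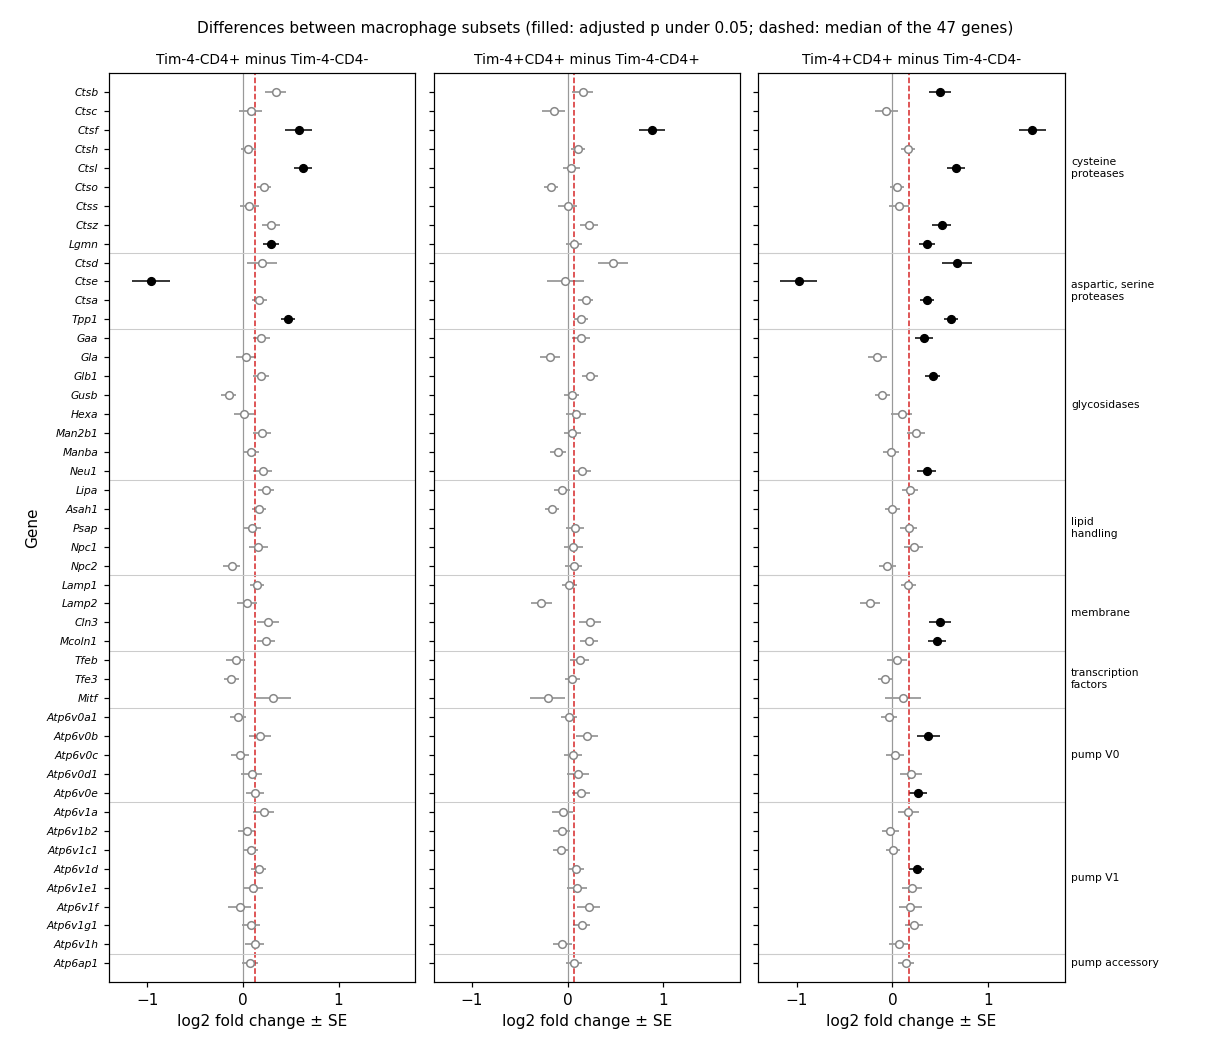
Log2 fold change ± SE of the 47 genes in the 3 comparisons between macrophage subsets (n = 4 libraries each). Filled points have an adjusted p under 0.05, open points do not, and the dashed line is the median of the 47 genes (0.13, 0.06 and 0.17 from left to right). Ctsf is the one filled point in all 3 panels, and 17 points are filled in the right panel.

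Some markers of other cell types moved in the same order of subsets as these genes, and their part in the results was not tested. Of the 4 genes of the Ly6Chi monocyte list, the summed level was 515 to 764 CPM with neither marker, 67.4 to 124 CPM with CD4 alone and 7.46 to 17.7 CPM with both, beside 5419 to 7193 CPM in monocytes. The 4 endothelial genes summed to 108 to 123, 174 to 215 and 287 to 347 CPM in the 3 subsets, almost all of it Pecam1, which leukocytes also express, with Cdh5, Kdr and Cldn5 at means of at most 5.24 CPM. The 5 mesenchymal genes summed to 58.3 to 89.6, 71.4 to 93.3 and 98.0 to 139 CPM. Plasma cell genes, at 1050.0 to 2427 CPM, overlapped between the subsets, as did B cell genes at 35.5 to 70.5 CPM and epithelial genes at 13.16 to 31.02 CPM. Dendritic cell genes were at 39.8 to 75.5, 28.8 to 37.0 and 28.5 to 43.2 CPM in the 3 subsets, without overlap between the Tim-4- subsets. T cell genes were at 9.58 to 13.3, 11.4 to 16.8 and 6.57 to 9.92 CPM. Mast cell genes, at 5.12 to 13.99, 2.48 to 3.24 and 1.15 to 2.43 CPM in the 3 subsets, did not overlap. Eosinophil genes were at 5.29 to 9.36, 8.87 to 10.4 and 11.2 to 17.04 CPM and neuronal and glial genes at 1.39 to 1.75, 0.97 to 1.84 and 5.10 to 7.15 CPM. The neutrophil list was almost wholly Mmp9, at means of 1533, 3077 and 2157 CPM, with Cxcr2 and Retnlg under 1 CPM in each subset. Dissociation genes ran from 15199 to 19189, from 14308 to 19263 and from 13152 to 16194 CPM in the 3 subsets in that order. No listed marker found in the table was at 0 in all macrophage libraries.

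Beyond the 47 members, 139 further genes of the lysosome were listed in 7 groups, of which 127 could be tested. Against Tim-4-CD4- macrophages, 34 were higher and 12 lower in cells with both markers, and 13 were higher and 5 lower in cells with CD4 alone. Between the CD4+ subsets 2 were higher and 1 lower. Over all genes, 23.1%, 10.1% and 3.41% were called in these comparisons. The medians of the 127 were 0.10, 0.10 and 0.01 in these comparisons. Against monocytes, 52 to 61 were higher and 42 to 45 lower in the 3 subsets, beside 65.4% to 70.9% of all genes called.

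The group of 37 other hydrolases held 14 genes higher and 3 lower in Tim-4+CD4+ than in Tim-4-CD4- macrophages, beside 11.3% higher and 11.9% lower over all genes. Acp5, encoding tartrate-resistant acid phosphatase, was measured at 13.1, 17.2 and 14.4 CPM in the 3 monocyte libraries, 554, 583, 568 and 582 in the Tim-4-CD4- subset, 936, 1073, 1104 and 1144 in Tim-4-CD4+ libraries and 1475, 1186, 1061 and 1169.9 in the Tim-4+CD4+ subset, and differed between those subsets by 1.10 (SE 0.11, adjusted p = 1.3e-06). Arsb, encoding the sulfatase of dermatan sulfate, fell at each step, at 47.7, 44.8 and 46.4 CPM in the 3 monocyte libraries, 22.9, 20, 25.5 and 24.1 in the Tim-4-CD4- subset, 13.1, 15.2, 12.4 and 13.4 in Tim-4-CD4+ libraries and 8.37, 8.82, 9.66 and 7.78 in the Tim-4+CD4+ subset. It differed by -0.77 (SE 0.10, adjusted p = 6e-05) between the Tim-4- subsets and by -0.64 (SE 0.10, adjusted p = 0.00062) between the CD4+ subsets.

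Of 24 other membrane proteins tested, 8 were higher and 2 lower in Tim-4+CD4+ than in Tim-4-CD4- macrophages, beside 11.3% and 11.9% of all genes. Cd63, encoding a tetraspanin of late endosomes and lysosomes, gave 0.34, 0.126 and 0.427 CPM in the 3 monocyte libraries, 91, 98.9, 79.6 and 94.1 in the Tim-4-CD4- subset, 156, 194, 214 and 213 in Tim-4-CD4+ libraries and 436, 262, 301 and 291 in the Tim-4+CD4+ subset. No populations overlapped, and it differed by 1.83 (SE 0.19, adjusted p = 1.9e-06) between cells with both markers and with neither. Its smaller difference between the CD4+ subsets, 0.73 (SE 0.18, adjusted p = 0.033), lost the call in 5 of the 15 fits that left out 1 library. Mcoln2, a relative of Mcoln1, rose from 1.74 ± 0.197 CPM in Tim-4-CD4- to 4.93 ± 0.504 CPM in Tim-4+CD4+ macrophages. Laptm4b, encoding a lysosomal transmembrane protein, was at 5.88 ± 0.691, 9.5 ± 0.464 and 13.2 ± 1.69 CPM, and its call between the CD4+ subsets, at 0.47 (SE 0.12, adjusted p = 0.041), was also lost in several of those fits.

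In the group of enzyme sorting, 2 of 12 genes were higher and 1 lower in Tim-4+CD4+ than in Tim-4-CD4- macrophages, a share near that of all genes (23.1%). Sort1, encoding sortilin, a sorting receptor that works beside the mannose 6-phosphate receptors, gave 330.4, 418 and 323 CPM in the 3 monocyte libraries, 11.3, 9.94, 8.11 and 9.4 in the Tim-4-CD4- subset, 5.13, 2.78, 1.59 and 2.57 in Tim-4-CD4+ libraries and 1.64, 1.88, 0.981 and 1.69 in the Tim-4+CD4+ subset. It was lower in Tim-4+CD4+ than in Tim-4-CD4- cells, at -2.63 (SE 0.27, adjusted p = 2.1e-06), and the CD4+ subsets overlapped. Gnptg, encoding a subunit of the enzyme that builds the mannose 6-phosphate tag, was higher by 0.46 (SE 0.11, adjusted p = 0.0056).

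Of the 6 cathepsins and cystatin-type inhibitors tested beside the members, Cst3 was the one called between subsets. Cst3 encodes cystatin C, a secreted inhibitor of cysteine cathepsins, and gave 1116, 873 and 957 CPM in the 3 monocyte libraries, 600.3, 606, 683 and 649.6 in the Tim-4-CD4- subset, 439, 419.8, 434 and 406 in Tim-4-CD4+ libraries and 499, 360.3, 379 and 322 in the Tim-4+CD4+ subset. It was lower in Tim-4+CD4+ than in Tim-4-CD4- macrophages, at -0.70 (SE 0.12, adjusted p = 0.00031), and lower with CD4 alone than with neither marker, at -0.58 (SE 0.12, adjusted p = 0.0036), and the CD4+ subsets overlapped.

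Against monocytes, the 13 other pump subunits and assembly factors tested had median log2 fold changes of 0.66, 0.96 and 0.63 in the 3 subsets. Of these genes, 7, 8 and 8 were called higher and 4, 4 and 3 lower. Shares over all genes were 37.3%, 39.1% and 39.5% higher and 28.1%, 30.7% and 31.3% lower. The 13 held 5 genes higher and 1 lower in Tim-4+CD4+ than in Tim-4-CD4- macrophages, beside 11.3% higher and 11.9% lower over all genes. Dmxl2, encoding a rabconnectin that assists pump assembly, rose from 59.9 ± 1.89 CPM with neither marker to 115 ± 20.2 CPM with CD4 alone, and Tim-4+CD4+ replicate 1, at 53.3 CPM, lay below its group. Atp6v1g2 was higher by 0.77 (SE 0.17, adjusted p = 0.0034) at a mean of 5.4 CPM. Among 18 genes of nutrient sensing and MiT/TFE control, 2 were higher and 3 lower, beside 23.1% of all genes called in either direction. Tfec, the fourth member of the MiT/TFE family, rose from 16.3 ± 2.75 CPM in Tim-4-CD4- to 30.4 ± 3.69 and 29.8 ± 3.09 CPM in the CD4+ subsets, at 0.90 (SE 0.14, adjusted p = 0.00041) and 0.87 (SE 0.14, adjusted p = 0.00018). Fnip2, encoding a folliculin partner, differed by 0.64 (SE 0.16, adjusted p = 0.0079). Of 17 autophagy genes, 3 were higher and 1 lower, a share near that of all genes (23.1%). Among them were Map1lc3a at 0.48 (SE 0.13, adjusted p = 0.017) and Wipi1 at -0.37 (SE 0.13, adjusted p = 0.046). Map1lc3a lost its call without Tim-4-CD4- replicate 4 and Wipi1 in most of the fits that left out 1 library, and none was called between the Tim-4- subsets or between the CD4+ subsets.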

How the data were processed

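RNA sequencing libraries were made by the authors with a stranded TruSeq mRNA kit and read as paired ends. Per the study's methods, reads were trimmed with Trimmomatic 0.36, mapped with STAR 2.4.2 to GRCm38.p4 and counted over GENCODE genes with HTSeq, using uniquely mapped reads. The GENCODE release used for counting was earlier than the M21 release used here for overlaps. The strand setting of the counting is not given in the sources used here. The deposited table gives raw counts per gene for genes with a total of at least 16. It also gives signal columns, which are the authors' counts divided by a size factor for each library and which entered no test.

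Library columns were matched to the labels by name. Counts were tested with edgeR 4.0.16 (R 4.3.3), by the quasi-likelihood test on all 15 libraries with TMM scaling, filterByExpr and Benjamini-Hochberg adjustment over 15802 genes. CPM used the TMM-scaled library sizes. Exon lengths, coordinates and overlaps came from GENCODE M21 (GRCm38) and promoter windows from RefSeq (GRCm38.p6). Macrophage libraries came from 4 sorts of pooled mice per the study and the fit had no term for the sort, so p-values measure the spread between sorted pools within each population. Alternatives were DESeq2 1.42.0, other scalings and filters, only the populations compared, replicate blocks, a fold minimum of 2 and leaving out each library. Members and gene lists were chosen with earlier results of these data known. Values in every library are given for the 3 called members with the largest absolute log2 fold change in each comparison, for the highest and lowest member of each role by CPM per kb and for the 3 transcription factors. Of the other lysosomal lists, at most 2 called genes a comparison of subsets are named, with a mean of at least 1 CPM.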

Additional observations from a re-analysis of the deposited data

Results flagged for a closer look

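In 13 of 141 groups of 4 libraries, 1 library of a member gene lay far from the other 3 by Dixon's ratio. Chance flags about 1 in 20 such groups. Tim-4+CD4+ replicate 1 gave 7 of the 13. It held 1642 CPM of Ctsz against 1313 to 1334 in the rest of its group, 1148 CPM of Ctsa against 970 to 996, 193 CPM of Gusb against 168 to 172 and 144 CPM of Neu1 against 115 to 117. It also held 18287 CPM of Psap against 14914 to 15420, 377 CPM of Atp6v0b against 246 to 266 and 150 CPM of Atp6v0e against 113 to 115.

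In Tim-4-CD4+ macrophages, replicate 3 held 222 CPM of Ctsd and 633 CPM of Hexa, above the other 3 libraries, and replicate 1 held 72.2 CPM of Mcoln1, below them. In Tim-4-CD4- macrophages, replicate 2 held 759 CPM of Ctsh, below the other 3, and 630.2 CPM of Hexa, above them. Tim-4+CD4+ replicate 2 held 434 CPM of Lipa, above the rest of its group.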

How the results depend on the processing

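Leaving out each of the 15 libraries in turn gave 33 to 38 members called in Tim-4-CD4-, 30 to 38 in Tim-4-CD4+ and 32 to 35 in Tim-4+CD4+ macrophages against monocytes. Between subsets it gave 3 to 12 for Tim-4-CD4+ against Tim-4-CD4-, 1 to 2 for Tim-4+CD4+ against Tim-4-CD4+ and 13 to 18 for Tim-4+CD4+ against Tim-4-CD4-. The count of 12 was reached without Tim-4+CD4+ replicate 1 and the count of 3 without Tim-4-CD4- replicate 3. Requiring a change of at least 2-fold left 11, 14 and 14 members against monocytes and 0, 0 and 1 between subsets in the same order. For Tim-4-CD4+ against Tim-4-CD4-, DESeq2 called 9 and a fit of only the populations compared called 12, and the cause was not tested. Of 6486 gene values recomputed, 171 lost and 77 gained a call and 0 changed direction with a call. With 3 or 4 pools a group, small differences between subsets are limited by the spread between pools.

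Neither set of replicate numbers paired the macrophage libraries throughout. Deviations from the group means of same-numbered libraries correlated at -0.123 to 0.134 by title and -0.0888 to 0.161 by description. Of 12 same-numbered pairs in each set, 2 by title and 4 by description were over 0.1. The libraries numbered 4 by description correlated at 0.128 to 0.161 with each other. Among 28 pairs of libraries with different numbers by both, correlations reached 0.24 and 5 were over 0.1. No block was built from these values, so an effect of the sort is not removed from the subset comparisons. With a replicate block by title numbers 37, 33 and 34 members were called against monocytes and 4, 1 and 13 between subsets. With the block by description numbers the counts were 38, 34 and 34, and 8, 1 and 17.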
